A study of Mus musculus with 12 samples.

Results

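The genes described here encode the proteins of the cytosolic and the mitochondrial ribosome. Members were chosen by symbol alone, as protein-coding mouse genes of GENCODE M21 whose symbol is Rpl, Rps, Mrpl or Mrps followed directly by a number, leaving out the Rps6k kinases and symbols with -ps. This gave 160 of 21864 genes with an annotated protein-coding transcript, of which 82 were cytosolic (49 of the large and 33 of the small subunit) and 78 mitochondrial (49 large and 29 small). The symbol rule also takes in like-named genes and gene copies such as Rps19bp1, Rpl22l1 and Rps27l, and it leaves out ribosomal proteins with other kinds of symbol such as Rplp0 and Rpsa. The symbol rule uses no value of the ChIP-seq, although the class itself was picked with earlier results of these data known.

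The data are lists of regions bound by BMAL1 in primary mouse adult fibroblasts (MAFs), which came from ear tissue of C57BL6/J females according to the study's methods. Senescent cells had received 20 Gy of X-rays and control cells a sham exposure. Cells of both groups were kept at 3% O2, were given 100 nM dexamethasone, a glucocorticoid used to synchronise circadian clocks, and were harvested 12 hours after it, so all values belong to 1 time point. There were 3 BMAL1 libraries per group, numbered here as in the labels (control 1 to 3, senescent 1 to 3). Nothing in the labels says that replicates came from separate cultures or mice, so spreads and p-values measure only the differences between these libraries. The labels and the study's methods name different suppliers of the BMAL1 antibody.

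BMAL1 pairs with CLOCK, and the pair binds E-boxes, of which CACGTG is the canonical form, at the promoters of its own repressors (the Period and Cryptochrome genes) and of many output genes. Cytosolic ribosomes translate nuclear-encoded mRNAs and need about equal amounts of all their proteins. Their genes are among the most strongly transcribed in growing cells, and their mRNAs begin with a pyrimidine tract (the TOP motif) through which the mTOR kinase adjusts their translation. Mitochondrial ribosomes are built from a separate set of nuclear-encoded proteins and translate the few mRNAs of the mitochondrial genome.

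Each library is a list of peaks, with 2794, 3349 and 10601 peaks in control 1 to 3 and 4220, 9805 and 5053 in senescent 1 to 3. The lists hold no read counts, so the sequencing depth is unknown, and a gene without a peak is one where no peak was called. Each peak was assigned to the gene whose annotated start site lay nearest, and was called a promoter peak where its midpoint lay within 1000 bp of that site. Control 3 and senescent 2 have by far the longest lists of their groups, and they also have the largest shares of all genes with a promoter peak of their groups: 3.72%, 4.52% and 12.9% of all genes in control 1 to 3, and 7.15%, 16.7% and 8.38% in senescent 1 to 3. Values are therefore given beside those of all genes, and also for the 2794 best-scored peaks of each library. Peak lists hold no marker of cell type, so the fibroblast label could not be checked. All 14 clock genes of a fixed list had a promoter peak in at least 1 library and 11 had one in all 6, with Per1 at rank 1 or 2 of every list.

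E-boxes at ribosomal protein promoters are shown first, because they are the letters BMAL1 is known to bind and peaks covered some of them and not others. The promoters are from RefSeq (GRCm38.p6), printed 5′ to 3′ on the strand of the gene with CACGTG in capitals and 30 or 46 bases in all. These 8 were chosen, after their values were seen, from 11 E-boxes found in the promoter table. Of the 11, 7 were under a peak in at least 1 library, and the 3 not printed (Rps19, Mrpl20 and Mrpl37) were under a peak in 0.
Rpl13a, chr7:45128920-45128965, minus strand, at -181 bp from the start site, under a peak in 6 of 6 libraries: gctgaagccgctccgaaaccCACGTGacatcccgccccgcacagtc
Rpl14, chr9:120571329-120571374, plus strand, at -93 bp, 4 libraries: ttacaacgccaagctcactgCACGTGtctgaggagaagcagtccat
Rpl19, chr11:98026679-98026708, plus strand, at -17 bp, 3 libraries: tacccagaggacCACGTGaccaaacgccct
Rpl23, chr11:97782425-97782454, minus strand, at -2 bp, 3 libraries: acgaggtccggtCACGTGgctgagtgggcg
Rpl34, chr3:130730528-130730573, minus strand, at -152 bp, 2 libraries: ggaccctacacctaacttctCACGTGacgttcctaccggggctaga
Mrpl36, chr13:73330954-73330983, plus strand, at -20 bp, 5 libraries: cacacgtcatccCACGTGaccttacgccat
Mrpl2, chr17:46646070-46646115, plus strand, at -137 bp, 1 library: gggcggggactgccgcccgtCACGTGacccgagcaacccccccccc
Mrps18c, chr5:100798584-100798613, plus strand, at -29 bp, 0 libraries: gcagccccgggtCACGTGacttccggcccg
The same hexamer was thus under a peak in every library at Rpl13a and in none at Mrps18c. At Mrps18c, senescent 2 had a promoter peak (rank 3827.5) that began downstream of the hexamer. The start site of Mrpl36 used here lies 2475 bp inside the gene. A start site of Ndufs6 on the other strand lies 29 bp from the nearest annotated start site of Mrpl36. That start site of Mrpl36 need not be the internal site.

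The first question was how often BMAL1 peaks lay at ribosomal protein promoters in control and in senescent cells. Of the 82 cytosolic genes, 5, 11 and 37 had a promoter peak in control 1 to 3 and 18, 45 and 21 in senescent 1 to 3. This is 21.5% ± 20.7 (SD, n = 3) of the genes in control and 34.1% ± 18.0 in senescent libraries. The groups overlapped, and control 3 exceeded senescent 1 and senescent 3. Of the 78 mitochondrial genes, 4, 3 and 20 had a promoter peak in the control libraries and 10, 20 and 5 in the senescent libraries, which is 11.5% ± 12.2 and 15.0% ± 9.79. These groups overlapped too, and control 3 and senescent 2 were level at 20 genes each. The difference between groups was 12.6 percentage points for cytosolic genes, 3.42 for mitochondrial genes and 3.67 for all genes. Without senescent 2 the cytosolic difference was 2.24 points and the mitochondrial one -1.92, and without control 3 they were 24.4 and 10.5. The mitochondrial difference was also negative, at -0.427, without control 2. With lists cut to equal length, the shares were 10.6% ± 4.28 in control and 14.2% ± 4.62 in senescent libraries for cytosolic genes, and 5.13% ± 2.56 and 6.84% ± 1.48 for mitochondrial genes, again with overlapping groups. All genes together did not overlap at equal length, with 4.09% ± 0.44 in control and 5.27% ± 0.48 in senescent libraries.

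**Figure D1:**
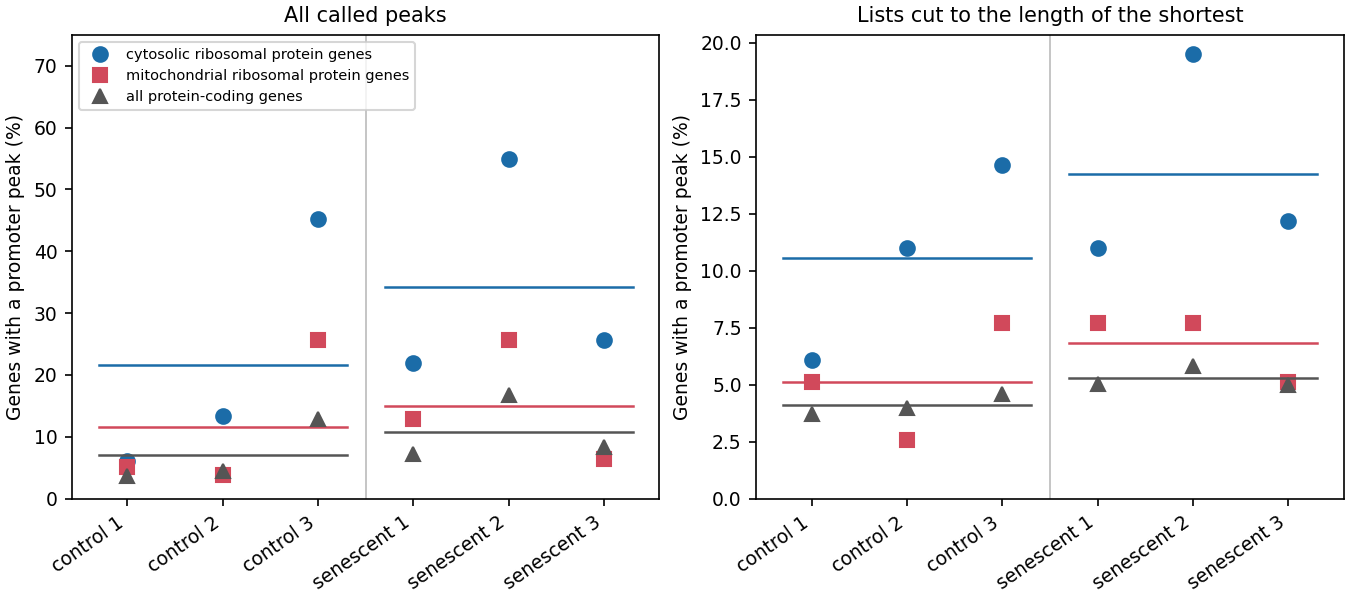
Percent of the cytosolic (circles), mitochondrial (squares) and all protein-coding genes (triangles) with a promoter peak in each of the 6 libraries, with lines at group means, for all peaks (left) and with each list cut to its 2794 best-scored peaks, the length of the shortest list (right). Cytosolic genes lie above all genes in every library, and the values of the control and senescent libraries overlap for both ribosomal classes.

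Against all genes, the cytosolic class was promoter-bound more often in 6 of 6 libraries. Its share was 1.64, 2.97 and 3.49 times that of all genes in control 1 to 3 and 3.07, 3.29 and 3.05 times in senescent 1 to 3. The ratio was 2.70 ± 0.95 in control and 3.14 ± 0.13 in senescent libraries, a difference smaller than the spread of the controls. For the mitochondrial class the ratio was 1.38, 0.851 and 1.98 in the control libraries and 1.79, 1.54 and 0.765 in the senescent libraries, so that 2 of 6 libraries fell below the level of all genes. Within each library the cytosolic share exceeded the mitochondrial one, by 0.969, 9.57 and 19.5 percentage points in control 1 to 3 and by 9.13, 29.2 and 19.2 in senescent 1 to 3 (14.6 ± 10.0, SD, n = 6 libraries). The gap was widest in senescent 2 and under 1 point in control 1, where 5 cytosolic and 4 mitochondrial genes were bound. At equal list length it averaged 6.42 points and was positive in all 6 libraries.

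Promoters of both classes are mostly CpG-rich, meaning that a window from 250 bp before to 50 bp after a start site had at least 50% GC and a ratio of observed to expected CpG of at least 0.6. This held for 84.1% of cytosolic, 80.8% of mitochondrial and 49.7% of all genes. Against CpG-rich genes only, a comparison added after the data were seen, the mean ratio was 1.92 for the cytosolic class and 0.749 for the mitochondrial class. In this comparison 71.0% of 69 cytosolic, 38.1% of 63 mitochondrial and 36.3% of all 10875 CpG-rich genes had a promoter peak in at least 1 library. Mitochondrial ribosomal protein genes were above this background in 2 of 6 libraries, control 1 (6.35% against 6.26%) and control 3 (23.8% against 21.6%), and below it in the other 4. Cytosolic ribosomal protein genes were above it in 6 of 6, from 7.25% against 6.26% in control 1 to 59.4% against 28.5% in senescent 2.

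Over the 6 libraries, 54 of 82 cytosolic genes (65.9%) and 31 of 78 mitochondrial genes (39.7%) had a promoter peak in at least 1, beside 21.7% of all genes. By subunit, 31 of 49 large and 23 of 33 small subunit genes of the cytosolic ribosome were bound, and 21 of 49 and 10 of 29 of the mitochondrial ribosome. Of the bound genes, 14 cytosolic (25.9%) and 17 mitochondrial ones (54.8%) were bound in 1 library only, beside 41.1% of all bound genes. At equal list length 28 cytosolic and 12 mitochondrial genes were bound in at least 1 library, beside 10.4% of all genes. In 4 or more libraries, 11 cytosolic genes (13.4%) and 5 mitochondrial genes (6.41%) were bound, beside 5.30% of all genes. In all 6, there were 3 cytosolic genes, Rpl13a and Rps29 among them, and 1 mitochondrial gene, Mrpl48, which is 3.66% and 1.28% beside 2.17% of all genes.

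**Figure D2:**
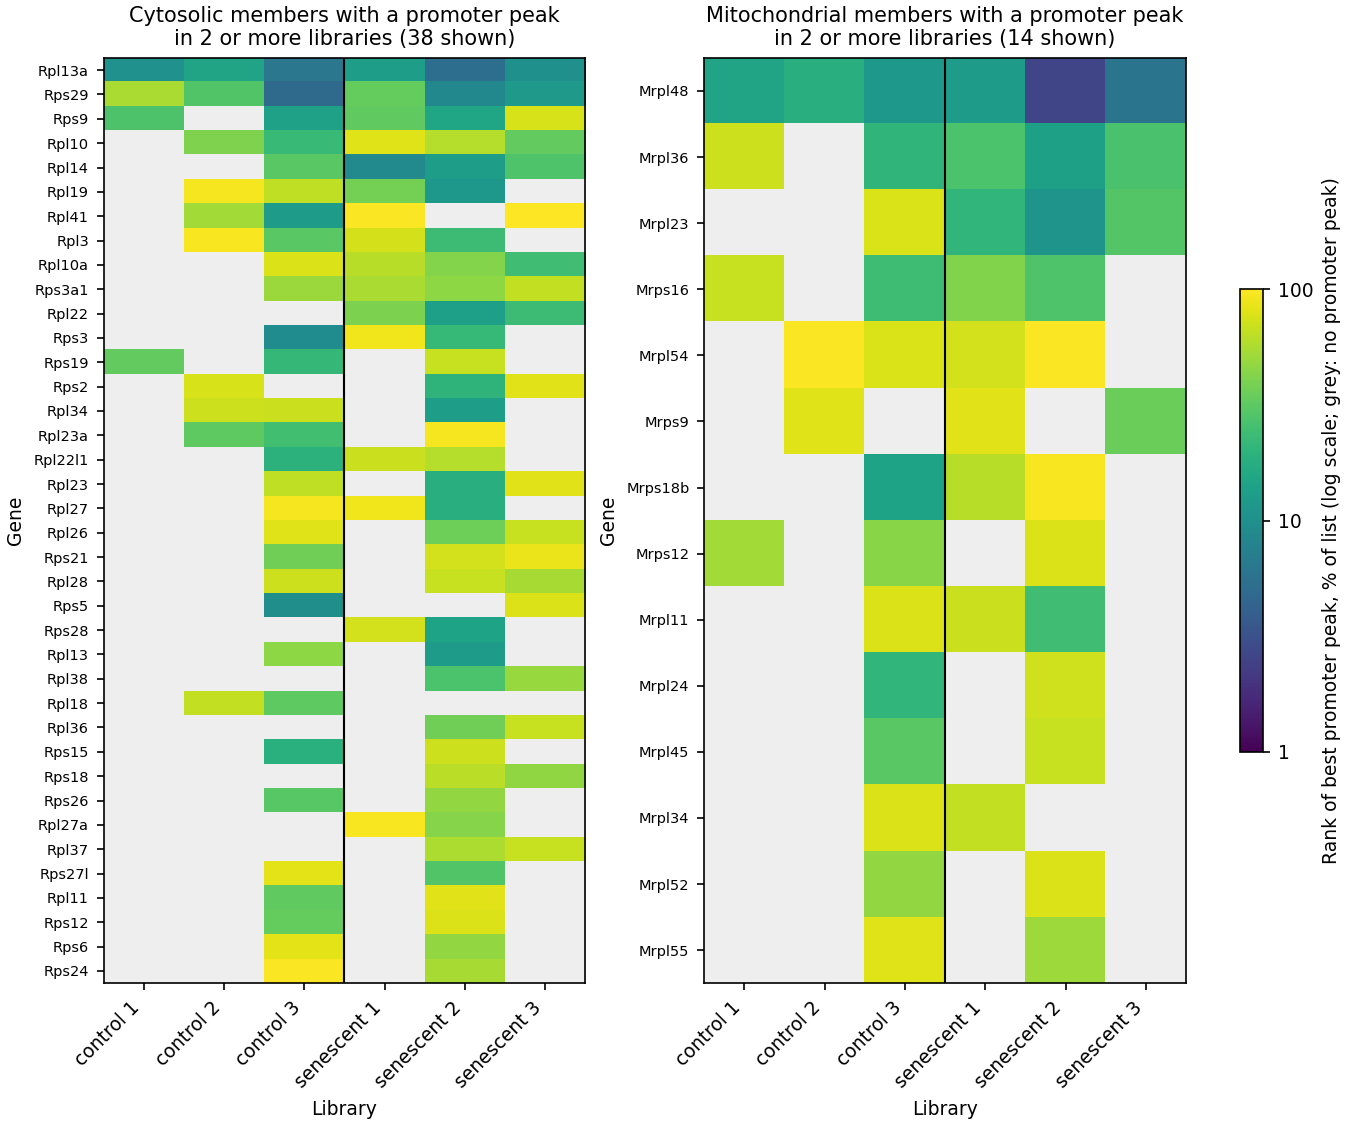
Rank of the best promoter peak as percent of its list (colour, log scale, grey where no promoter peak was called) for 38 cytosolic and 14 mitochondrial genes with a promoter peak in 2 or more libraries, by library. The top rows are bound throughout, and most other rows are filled mainly in control 3 and senescent 2, the longest lists.

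Rpl13a (ENSMUSG00000074129.14, chr7:45125558-45128761, minus strand), a protein of the large subunit, carried a promoter peak in every library. Peaks were ranked within their list by score, with 1 as the best, since scores are not normalized between libraries. Rpl13a ranked 285.5, 490.5 and 658 in control 1 to 3 and 543, 518 and 511.5 in senescent 1 to 3. The senescent ranks all lay inside the range of the control ranks, and senescent minus control was 0.21 on the log2 scale (p = 0.7 by an exact two-sided permutation test, adjusted to 0.894 over the 474 genes bound in all 6 libraries). In control 1 it was the best-ranked member. The E-box printed above lay within 100 bp of the centre of the Rpl13a peak in all 6 libraries.

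Rps29 (ENSMUSG00000034892.8, chr12:69157722-69159186, minus strand), a small subunit protein, ranked 1552, 964 and 523 in control 1 to 3 and 1427, 846.5 and 612.5 in senescent 1 to 3. The groups overlapped almost fully (log2 difference -0.03, exact permutation p = 1). Its peaks held no CACGTG within 100 bp of the centre but held the variant CACGCG there in 6 of 6 libraries. Mrpl48 (ENSMUSG00000030706.17, chr7:100545751-100608301, minus strand), a protein of the large mitochondrial subunit, ranked 414.5, 606 and 1235 in the control and 527, 256 and 298 in the senescent libraries. The senescent libraries held the 2 best ranks, but senescent 1 lay inside the control range (log2 difference -0.98, exact permutation p = 0.2, adjusted p = 0.449). This peak lay in an intron, 243 to 370 bp downstream of an internal transcript start at position 100583102, which is 25199 bp from the 5′ end of the gene. It was not a promoter peak when only the 5′ end of each gene counted as its start.

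Members bound in 4 or 5 libraries, named after their values were seen, came next. Rps9, of the small subunit, was bound in 5 libraries, at rank 769 in control 1, 1467 in control 3 and 1366, 1466 and 3837.5 in senescent 1 to 3. Rpl10, of the large subunit, was missing from control 1 and ranked between 1372.5 in control 2 and 5913 in senescent 2. Both were thus found in both groups, each short of 1 control library. Rpl14 was bound in control 3 at rank 3279.5 and in senescent 1 to 3 at 373, 1285 and 1421. Rpl10a was bound in control 3 at 8269.5 and in the senescent libraries at 2570, 4184.5 and 1234.5, and Rps3a1 at 5322.5 and at 2358.5, 4512.5 and 3282. In these 3 genes control 1 and 2 had no peak at the promoter, and every senescent rank was better than the 1 control rank, which comes from the longest list. As percent of the list this order held for Rpl14 and Rpl10a but not for Rps3a1, at 50.2% in control 3 and 55.9%, 46.02% and 65.0% in senescent 1 to 3. Rpl14 also had distant peaks, and its best peak at any distance ranked 463.5 and 498.5 in control 1 and 2.

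Rpl19, Rpl41 and Rpl3, all of the large subunit, were bound in 2 libraries of each group. Rpl19 ranked 3144.5 and 6794.5 in control 2 and 3 and 1604 and 1148 in senescent 1 and 2, whereas Rpl41 ranked 1781.5 and 1337 in control 2 and 3 and 4110 and 5015 in senescent 1 and 3. Their order between groups was opposite. Among mitochondrial genes, Mrpl36 was bound in 5 libraries, at 1979 in control 1, 2141.5 in control 3 and 1137, 1340 and 1346 in senescent 1 to 3. Mrpl23 was bound in control 3 at 8212 and in senescent 1 to 3 at 876.5, 1068 and 1473. Both had CACGTG near the centre of their peaks. As percent of the list, Mrpl23 was at 77.5% in control 3 and 20.8%, 10.9% and 29.2% in senescent 1 to 3, whereas the groups overlapped for Mrpl36, with control 3 at 20.2% and senescent 1 and 3 at 26.9% and 26.6%. Mrps16 and Mrpl54 were bound in 2 libraries of each group. No promoter peak was called in any library at 28 cytosolic genes, among them Rpl4, Rpl8 and Rps27a, and at 47 mitochondrial genes, among them Mrpl1, Mrpl3, Mrps2 and Mrps5.

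None of the members bound in all 6 libraries was among the genes whose ranks did not overlap between groups, which were 97 of 474 genes (20.5%) with better ranks in senescent and 50 (10.5%) with better ranks in control libraries. With 3 libraries against 3, the smallest p is 0.1, so no gene could pass 0.05, and the smallest adjusted p was 0.322. The median log2 difference over the 474 genes was -0.16. As percent of the list, 13.3% of the 474 genes were better in senescent and 1.90% in control libraries without overlap.

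**Figure D3:**
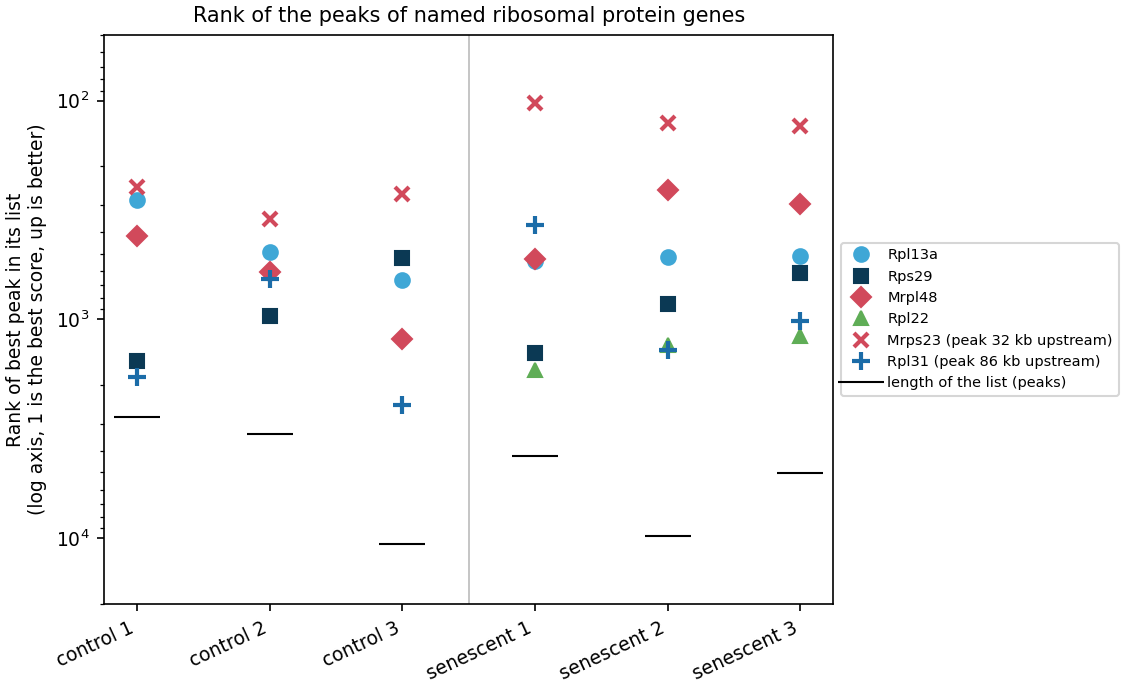
Rank of the best peak of named genes in each of the 6 libraries (log axis, inverted so that better ranks are higher), with a bar at the length of each list. Points are promoter peaks except for Mrps23 and Rpl31 (crosses), where they are the best peak at any distance in each library. For Rpl31 these need not all be the peak far upstream named in the legend. Rpl13a stays between 285.5 and 658, Rpl22 has points in senescent libraries only, and Mrps23 lies between 103 and 130 in senescent and between 248 and 349.5 in control libraries, groups that overlap once ranks are taken as percent of the list.

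Peaks called in senescent cells only were next. A gene was counted as senescent-only with a promoter peak in at least 2 of 3 senescent and 0 of 3 control libraries, and control-only the other way round. There were 8 senescent-only cytosolic genes (9.76%) and 0 mitochondrial ones, beside 464 of all genes (2.12%). Control-only there was 1 cytosolic gene, Rpl18, and 0 mitochondrial genes, beside 79 of all genes (0.361%). The count of senescent-only members depended on single libraries: it was 21 without control 3, 2 without senescent 2 and 4 without senescent 3. The count over all genes moved the same way, from 464 to 1005, 176 and 279. At equal list length there were 5 cytosolic and 1 mitochondrial senescent-only genes (1.37% of all genes) and 3 control-only cytosolic genes, Rpl23a, Rpl41 and Rps19 (0.567%). Counted more loosely, 29 cytosolic genes (35.4%) were bound in more senescent than control libraries and 10 (12.2%) in more control libraries. For mitochondrial genes these were 15 (19.2%) and 8 (10.3%), and for all genes 2553 (11.7%) and 930 (4.25%). The lean to senescent libraries was thus shared by all genes.

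Rpl22, a large subunit protein that also binds RNA outside the ribosome, was bound in 3 of 3 senescent libraries, at ranks 1699, 1312.5 and 1194, and in 0 of 3 control libraries. The midpoints of its peaks lay at -5, -131 and -83 bp from an annotated start site (gene ENSMUSG00000028936.15, chr4:152325742-152334071, plus strand). Its call held under every setting tried, equal list length and each left-out library included.

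A further 6 senescent-only genes were each bound in 2 of 3 senescent libraries. Rps18 (ranks 6090 and 2333), Rpl37 (5604.5 and 3406.5), Rpl38 (2681 and 2469) and Rpl36 (3609.5 and 3446.5) were bound in senescent 2 and 3. Rpl27a (4033.5 and 4236.5) and Rps28 (3071 and 1417) were bound in senescent 1 and 2. All 6 therefore rest on senescent 2, and of them only Rpl38 remained senescent-only at equal list length. A start site of Rps28 lies 10 bp from that of Ndufa7 on the other strand. For Rps18 the smallest such distance is 135 bp, to Vps52. Rps28 was no longer senescent-only when a peak was given to every gene within 1000 bp, nor was Rps18 with 1 start site per gene. Rpl18, the control-only gene, had promoter peaks in control 2 (rank 2176.5) and control 3 (3406.5). The control 2 peak lay at a start site 2614 bp inside the gene. The nearest start sites of Rpl18 and of Sphk2, on the other strand, lie 69 bp apart. Under either of these other assignments Rpl18 was no longer control-only.

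Head-to-head promoters, with the start site of a gene on the other strand within 1000 bp, were found at 32 of 78 mitochondrial (41.0%) and 14 of 82 cytosolic genes (17.1%). A peak between such genes goes to the nearer start site. Of the cytosolic genes, 5 of 14 with such a neighbour (35.7%) and 72.1% without had a promoter peak in at least 1 library. Of the mitochondrial genes these were 11 of 32 (34.4%) and 43.5%. None of these shares was computed over all genes, so they cannot be called particular to ribosomal protein genes. Giving each peak to every gene within 1000 bp raised the genes bound in at least 1 library to 60 cytosolic (73.2%) and 35 mitochondrial (44.9%), beside 23.6% of all genes. The gap between classes in the mean share per library was then 14.2 percentage points, close to the 14.6 of the nearest-gene rule. Peak lists do not show which gene of such a pair a peak serves.

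Peaks of ribosomal protein genes were close to start sites. Of the best promoter peak of each gene and library, 88.5% of cytosolic, 77.8% of mitochondrial and 73.4% of all genes' peaks had their midpoint within 250 bp of a start site (means over 6 libraries). Cytosolic peaks did not rank better than others throughout, as their median rank was at 27.5% to 64.9% of the list depending on the library, beside 39.7% to 45.7% for all promoter peaks and 29.2% to 79.8% for mitochondrial ones. In 11 of 137 cytosolic peaks (8.03%) the start site in question was over 1000 bp from the 5′ end of the gene. This held for 14 of 62 mitochondrial peaks (22.6%) and for 1394 of 11668 peaks of all genes (11.9%). Of the 14 mitochondrial peaks, 11 belonged to Mrpl36 and Mrpl48.

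**Figure D4:**
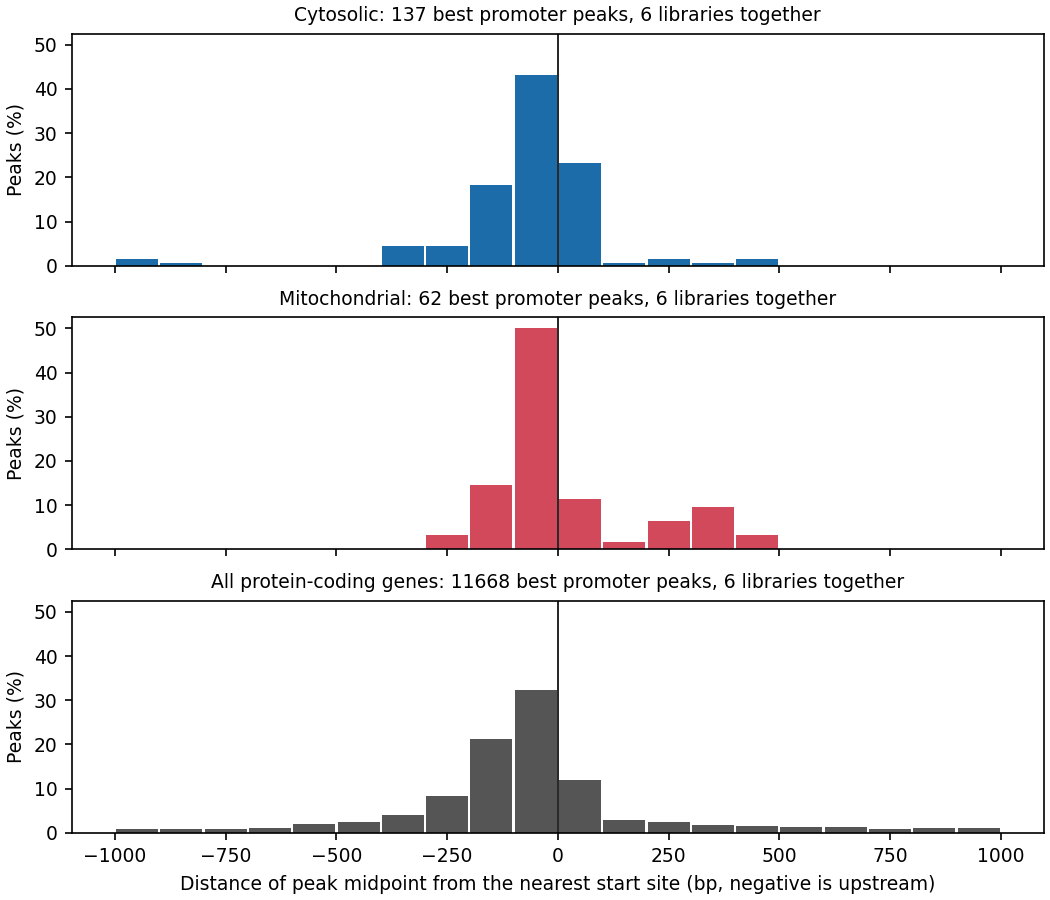
Distance of the midpoint of each gene's best promoter peak from the nearest start site in bands of 100 bp, as percent of the peaks of all 6 libraries together (137 cytosolic, 62 mitochondrial, 11668 for all genes). In each class the highest band is the 100 bp just upstream of the start site, with 43.1% of cytosolic, 50% of mitochondrial and 32.3% of all peaks, and the mitochondrial bands 200 to 400 bp downstream include the Mrpl48 peak.

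Some peaks nearest to a ribosomal protein gene were far from it. With peaks at any distance, 58 cytosolic and 36 mitochondrial genes had a peak in at least 1 library, beside 36.4% of all genes, and 6 and 3 in all 6 libraries, beside 5.14%. These 9 were the 4 genes with a promoter peak throughout, Mrps23 and Rpl31 with distant peaks only, and Rpl3, Rpl14 and Mrpl33 with promoter peaks in some libraries. Mrps23, a small subunit protein of the mitochondrial ribosome (ENSMUSG00000023723.17, chr11:88204388-88211507, plus strand), had peaks in all 6 libraries and none within 1000 bp of its start sites. Its best peak lay far upstream, with an E-box at -32354 bp from the gene start (chr11:88171740-88172324 in senescent 2) and ranked 248, 349.5 and 268 in control 1 to 3 and 103, 126 and 130 in senescent 1 to 3. All 3 senescent ranks were better than all control ranks (log2 difference -1.26, exact permutation p = 0.1, the smallest possible, adjusted p = 0.265 over 1123 genes with any peak in all 6 libraries), as for 18.3% of those genes, while 19.4% ranked better in every control library. As percent of the list the groups overlapped for Mrps23, at 8.88%, 10.4% and 2.53% in control 1 to 3 and 2.44%, 1.29% and 2.57% in senescent 1 to 3. This peak held a pair of E-boxes with 8 bp between them, read from GRCm38 on the plus strand at chr11:88172014-88172059, under a peak in 6 of 6 libraries and within no protein-coding exon:
Mrps23 distal peak: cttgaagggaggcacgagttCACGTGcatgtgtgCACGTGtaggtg
Rpl31, of the large cytosolic subunit (ENSMUSG00000073702.11, chr1:39367842-39371911), also had only peaks at a distance in all 6 libraries, the best of them near -85758 bp from the gene start. The best peak of each library ranked 1837.5, 655.5 and 2460.5 in the control and 370, 1380 and 1022.5 in the senescent libraries. The groups overlapped (log2 difference -0.83, exact permutation p = 0.4). The best peak was taken separately in each library, so these ranks need not all belong to the same region. An E-box at chr1:39282064-39282109 was under a peak in 5 of 6 libraries:
Rpl31 distal peak: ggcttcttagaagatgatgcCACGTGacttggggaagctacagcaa
Nearest is a matter of position here, and which gene either region acts on was not measured.

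With CACGTG sought within 100 bp of the peak centre, E-boxes were somewhat less frequent under ribosomal protein promoter peaks than under all promoter peaks. This held in 6 of 6 libraries, by less than the spread between libraries. CACGTG lay within 100 bp of the centre of 27.4% ± 8.75 (SD, n = 6 libraries) of the members' promoter peaks, 28.7% for cytosolic and 26.9% for mitochondrial genes, beside 31.5% ± 9.27 of all promoter peaks. In windows of the same length 2000 bp away it was found in 3.16% for members and 2.26% for all. Counted by gene, 16 of 54 bound cytosolic (29.6%) and 4 of 31 bound mitochondrial genes (12.9%) had such a peak in at least 1 library, and 28.0% of all bound genes. The 4 mitochondrial genes were Mrpl2, Mrpl23, Mrpl36 and Mrpl54, named here because the count is small. The AP-1 letters TGANTCA were near the centre of 3 of 160 cytosolic and 0 of 64 mitochondrial promoter peaks, all 3 in senescent 2. As means over libraries this was 0.66% of the members' and 5.55% of all promoter peaks. In the windows 2000 bp away the letters were found in 6.57% for members and 5.51% for all. All promoter peaks were thus level with their background for these letters. With CACGTG sought within 50 bp of the centre, the members' shares were 33.3%, 25% and 13.8% in control 1 to 3. They were 32.3%, 10.5% and 18.5% in senescent 1 to 3, beside a mean of 19.8% of all promoter peaks. At this narrower window the mean share of the members was thus not the lower.

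Reading the reference the other way, from promoter to peak, 11 cytosolic and 5 mitochondrial genes hold CACGTG in a promoter window. A promoter peak was called in at least 1 library at 10 of these 11 and at 5 of these 5. Without the letters, 44 of 71 cytosolic and 26 of 73 mitochondrial genes (35.6%) had a promoter peak. Over all genes the shares were 46.9% of 2172 with and 18.9% of 19692 without an E-box. A hexamer in the window says nothing of whether it is the bound site.

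Other letters were searched on both strands of the same windows at every annotated start site. The ETS letters CCGGAAG were in 31.2% of cytosolic and 36.9% of mitochondrial windows, beside 11.2% of all and 19.8% of CpG-rich windows. The YY1 core ATGGCNG was in 33.5% and 35.4%, beside 16.2% of all and 19.5% of CpG-rich windows. CCAAT was in 22.5% and 33.8%, beside 36.8% of all and 34.7% of CpG-rich windows. CACGTG was in 9.83% and 7.69%, beside 7.55% of all and 10.9% of CpG-rich windows, so both classes were below CpG-rich windows. Counted by gene the order changed. A promoter window held CACGTG in 13.4% of cytosolic and 6.41% of mitochondrial genes, beside 9.93% of all and 12.6% of CpG-rich genes. Cytosolic genes were then above both backgrounds and mitochondrial genes below both. The classes differed most at the start site itself, where a pyrimidine run of 10 or more bases within 25 bp was found at 33.5% of cytosolic, 6.92% of mitochondrial and 9.25% of all start sites. That run was as common at cytosolic start sites of bound genes (33.9%) as at those of genes bound in no library (32.7%).

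**Figure D5:**
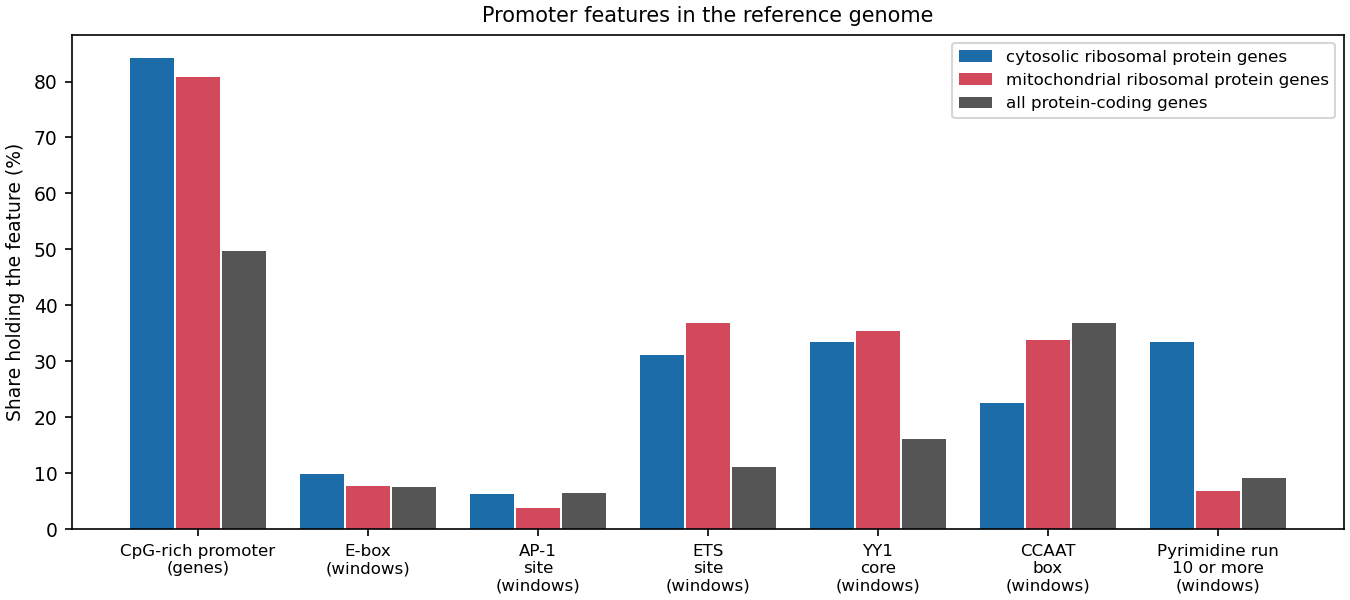
Percent of cytosolic, mitochondrial and all protein-coding genes with a CpG-rich promoter, and percent of their promoter windows (start sites for the pyrimidine run) with each motif in the reference genome. Both ribosomal classes stand above all genes for CpG-rich promoters, ETS and YY1 letters, and the long pyrimidine run is common at cytosolic genes alone. E-box bars, counted by window, are nearly level, and shares counted by gene are not shown.

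Other genes of translation were counted in the same way. Of 6 ribosomal proteins outside the symbol rule, 6 had a promoter peak in at least 1 library and 0 in all 6. Of 14 further mitochondrial translation genes these were 6 and 0, of 30 ribosome biogenesis genes 20 and 5, and of 68 cytosolic translation factors 34 and 7, beside 21.7% and 2.17% of all genes. Those in all 6 libraries were Ncl, Nolc1, Npm1, Pes1 and Rrn3 for biogenesis, and Eef1a1, Eef2k, Eif1, Eif3b, Eif4a1, Eif4g1 and Eif5a2 for the factors. Ncl, which encodes the nucleolar protein nucleolin, ranked 259, 138 and 143.5 in the control and 34, 41 and 34 in the senescent libraries. Eif4a1, an RNA helicase of translation initiation, went the other way, from 57, 61 and 62 in control to 218, 207.5 and 209 in senescent libraries. By rank, Eif5a2 was also better in every senescent and Eif3b in every control library. The other 8 of these 12 genes overlapped, beside 327 of the 474 genes bound in all 6 libraries (69.0%). As percent of the list, Ncl and Eif4a1 still did not overlap, while Eif5a2 and Eif3b did, beside an overlap in 84.8% of the 474 genes. For each of the 4 the exact permutation p on ranks was 0.1 and the adjusted p 0.322.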

How the data were processed

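BMAL1-ChIP-seq peak lists of 6 libraries (3 control, 3 senescent) were used; 6 input libraries were not analysed here. Groups and replicate numbers came from sample titles, and the file headers give 1 sequencing lane for all lists. Per the study's methods, the authors mapped read pairs to mm10 with Burrows-Wheeler Aligner, kept pairs with a uniquely mapped end, removed duplicates with Picard and called peaks with Model-Based Analysis of ChIP-Seq at an FDR of 1% or less. The files are named for MACS2, and there is 1 list per library. The deposited score was read as −log10 of a q-value, which was inferred from the smallest scores (2.02 to 2.12) and is not stated. It depends on depth, which is unknown, so ranks were compared.

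Peak midpoints were assigned to the nearest start site of protein-coding GENCODE M21 transcripts with pandas 2.3.3 and numpy 2.4.6, and sequence was read from GRCm38.p6 with pysam 0.24.0. A promoter sequence from RefSeq (GRCm38.p6) was at hand for 132 of 160 members. Shares and counts carry no test. Log2 ranks were compared by an exact permutation test over 20 arrangements with Benjamini-Hochberg adjustment, checked on simulated data. The differential test of the study needs reads and was not repeated. Named genes were members bound in all 6 libraries, senescent-only, control-only, best in a library or bound only at a distance in all 6. A few members that meet the rule are not reported here by name, and counts include them. The class of members and the gene lists were chosen with earlier results of these data known. Alternatives were other promoter distances and assignments, 1 start site per gene, stricter or equal lists, left-out libraries, a replicate block, other rank scales, like-named genes left out and other E-box windows. Intervals for shares are not given, since genes are not replicates.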

Additional observations from a re-analysis of the deposited data

How the results depend on the processing

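The gap between cytosolic and mitochondrial shares stayed positive under all alternatives run, at 6.42 to 17.3 percentage points (16.9 without the 9 copies and like-named genes). Counts of calls moved more. With peaks at any distance, 9 members were bound in all 6 libraries and the cytosolic ratio to all genes was 1.92. With CpG-rich genes as background the ratios were 1.92 and 0.749 (mitochondrial). Senescent-only members numbered 5 with peaks above the median score. With 1 library left out they numbered 2 to 21, beside 176 to 1005 of all genes. Control-only members numbered 0 with 1 start site per gene and with peaks given to every gene within 1000 bp. They also numbered 0 without both longest lists (chosen after seeing the data), beside 0.146% of all genes. There were 2 above the median score, and 3 at equal length, beside 0.567% of all genes at equal length. With 1 library left out they numbered 0 to 5, beside 15 to 206 of all genes (0.0686% to 0.942%). Both the 5 and the 206 came without senescent 2. All-gene counts above the median score are not given here. Rpl18 had 1 more senescent than control library with 1 start site per gene. Genes without overlap of ranks were 15.2% with ranks as percent of the list, a scale applied to single genes after seeing the data. E-box shares were 41.6% with both variants added (49.1% of all promoter peaks) and 39.6% above the median score (40.2% of all). Within 50 bp of the centre the mean E-box share of members was above the 19.8% of all promoter peaks.

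The direction of the small rank differences was not stable. As percent of the list the difference was -0.93 for Rpl13a, and among promoter peaks alone 0.32 on the log2 scale for Rps29. With 1 library left out they ran from -0.12 to 0.49 for Rpl13a and from -0.44 to 0.35 for Rps29. The cause was not tested for any of these changes except where fewer peaks or libraries were used by construction.

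Deviations of log2 rank correlated at 0.07, -0.01 and 0.05 between same-numbered libraries and at -0.10 to 0.05 between others. These weak values do not settle whether equal replicate numbers mark pairs. As a replicate block, 47.7% of 474 genes moved the same way in 3 of 3 pairs, the smallest p is 0.25, and the mean share differences were 12.6 and 3.42 percentage points as before.

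Without read counts, a peak missing from a short list cannot be told from a weak one, which limits every senescent-only and control-only call.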
